A study of Homo sapiens with 2 samples.

Results

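The genes of the proteasome and its assembly were examined in MDA-MB-231 cells, an established human breast carcinoma line, on 1 array of parental control cells and 1 array of a UGT8 knockdown clone. The members were every probe set annotated to a single symbol made of PSM, a letter from A to G and a number. This rule found 110 probe sets of 45 genes, out of 49495 probe sets and 18244 genes in all, and used no measured value. PSMC5, PSMD7 and PSMD13 were not analysed here. Both groups were grown in medium with 5.6 mmol/L glucose and harvested 48 h after passage, so that the UGT8 knockdown was the only labelled difference. UGT8 encodes the ceramide galactosyltransferase, which makes galactosylceramide. The knockdown sample was 1 clone and the control was the parental line, and clone and knockdown cannot be told apart. No source used here gives the knockdown reagent or a vector control.

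The proteasome is the large protease that degrades proteins tagged with ubiquitin in the cytosol and nucleus. Its core particle is a barrel of stacked rings, with alpha subunits (PSMA genes) in the outer rings and beta subunits (PSMB genes) in the inner ones, where PSMB5, PSMB6 and PSMB7 carry the active sites. In cells exposed to interferon-gamma and in many immune cells, PSMB8, PSMB9 and PSMB10 take the places of these catalytic subunits and form the immunoproteasome, which favours peptides that bind class I HLA molecules. A regulatory cap on the barrel's end, built of a base with ATPases (PSMC genes) and a lid (PSMD genes), recognises, unfolds and feeds in substrates. Dedicated chaperones, among them PSMG1 to PSMG4, build these parts. Tumour cells often depend on high proteasome capacity, and inhibitors of PSMB5 are in clinical use against blood cancers.

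Values below are log2 array values (RMA), and a difference is the knockdown array minus the control array. Where a gene had several probe sets, the brightest one over the arrays stood for it. Genes under the median brightness of the probe sets other than controls (6.65, called the floor) were left out of counts, which kept 10426 genes. With 1 array per group no difference was tested, each describes this pair of arrays, and their number limits the precision. UGT8 went from 8.95 in the control to 6.61 in the knockdown, 5.07-fold lower, and its other probe sets were 4.83-fold and 3.21-fold lower. The line's markers VIM, CD44, EGFR, CAV1 and AXL lay past the floor on both arrays. ESR1 and PGR lay below it, while ERBB2, GATA3, CDH1 and EPCAM, listed as low in this line, read between 7.66 and 8.97. Their differences were 0.17 (ERBB2), -0.22 (GATA3), -0.35 (CDH1) and 0.62 (EPCAM, 1.54-fold higher).

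Genes of the constitutive proteasome were modestly and broadly higher on the knockdown array, on the deposited scale. The 3 immunoproteasome subunits were all lower there, PSMB8 alone by at least 1.2-fold, while 4775 of 10426 genes past the floor lay below 0. Centred on hybridisation controls, both groups were mostly lower. Of the 45 member genes, 43 lay past the floor, and their median difference was 0.32, beside 0.03 over all genes past the floor. At least 1.2-fold, a difference of 0.26, 26 of the 43 (60.5%) were higher, against 23.0% of all genes. In the other direction 3 of the 43 (6.98%) were lower, against 19.7% of all genes. Above 0 were 35 members, or 81.4%, against 53.4% of all genes. The members are bright probe sets, and among the 6021 genes past a floor at the 75th percentile (8.59) the background was alike, with 23.5% higher and 19.8% lower. At 1.5-fold, PSMG1 and PSMG4 were higher, 2 of 43 against 4.95% of all genes, and no member was lower, against 6.74%. The shift of the complex was thus made of many small differences. Members share the arrays and were not independent readings.

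**Figure D1:**
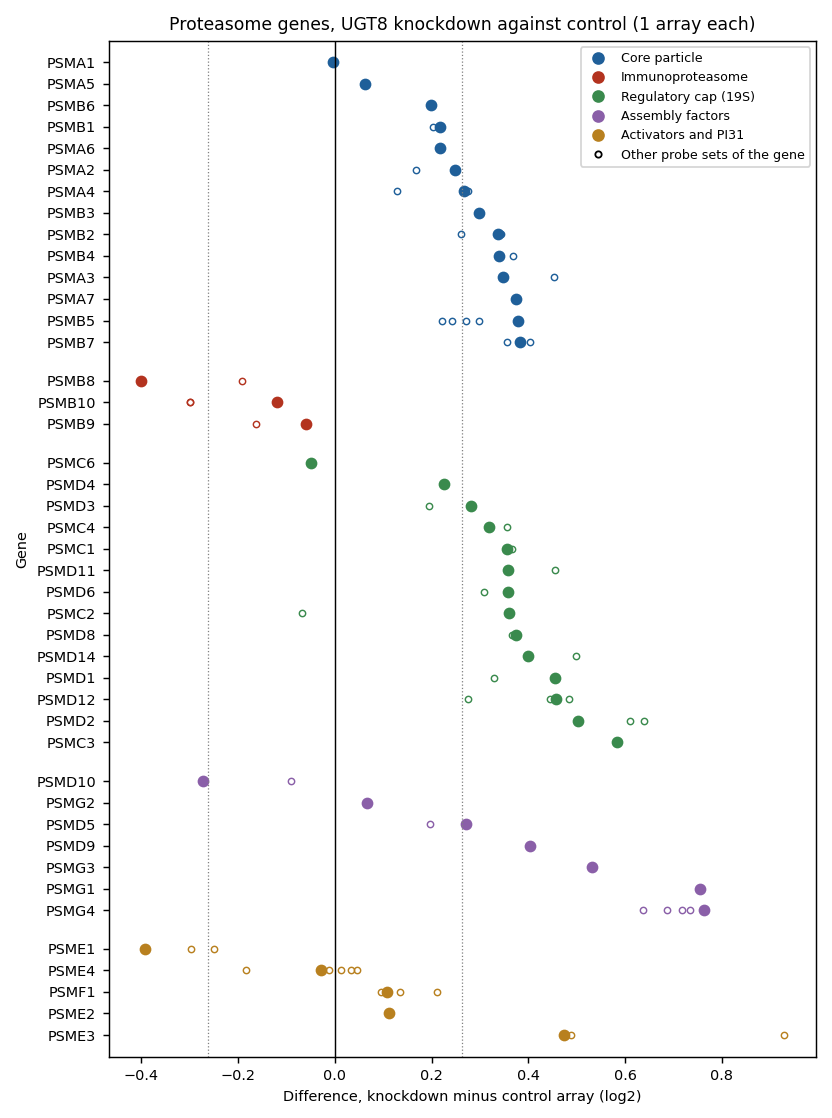
Difference between the knockdown and the control array (log2, x axis) for the 43 proteasome genes past the floor, grouped by class. Filled points are the probe set with the highest mean, open points the other probe sets past the floor, and dotted lines mark 1.2-fold. On the deposited scale 35 of the 43 lie above 0, against 53.4% of all genes, and all 3 immunoproteasome genes lie below it. Centred on the hybridisation controls, 4 lie above 0, against 7.10% of all genes.

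The direction depends on the scale of the arrays. Control RNAs added at hybridisation read a median of 0.51 higher on the knockdown array. Centring on them moves the median of all genes to -0.48 and that of the members to -0.19. Only PSMG4 (0.25), PSMG1 (0.24), PSMC3 (0.07) and PSMG3 (0.02) of the 43 members then lie above 0, beside 7.10% of all genes. Centring on poly-A control RNAs, added before labelling, left 33 members above 0, against 44.6% of all genes. The median of the members was then 0.25, beside -0.04 over all genes. The distance between members and all genes was 0.29 on each of these scales, because centring moves both alike. Unless another scale is named, directions are those of the deposited values and are relative to the typical gene. The 3' minus 5' reading of ACTB, a sign of RNA integrity, was 0.49 in the control and 0.90 in the knockdown, and that of GAPDH was 0.18 and 0.19. The part of RNA integrity in these differences was not tested.

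**Figure D2:**
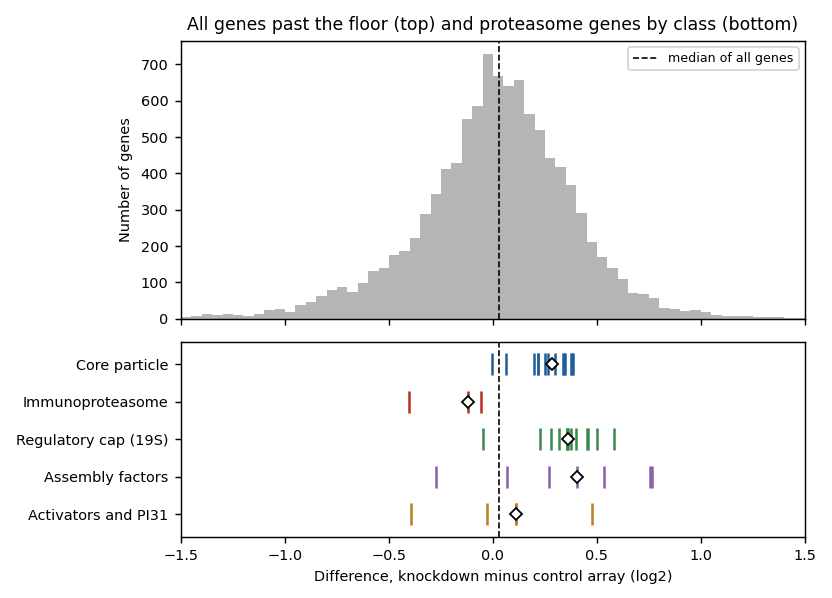
Differences of all 10426 genes past the floor (top, number of genes per bin of 0.05; values beyond 1.5 in either direction are not drawn) and of each proteasome gene (bottom, ticks by class, diamonds the class medians). The core, cap and assembly medians lie at 0.28, 0.36 and 0.40 on the deposited scale, to the right of the median of all genes (0.03), and the immunoproteasome median at -0.12, to its left; centred on the hybridisation controls every class median is below 0.

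The alpha ring, which forms the gate of the barrel, had a median of 0.25 on the deposited scale. Above 0 lay 6 of its 7 genes past the floor, against 53.4% of all genes, and none when centred on the hybridisation controls. PSMA7 went from 11.98 in the control to 12.36 in the knockdown (0.38). PSMA3 went from 11.89 to 12.24 (0.35), and its second probe set gave 0.45. PSMA4 (0.27) was also past 1.2-fold, while its dimmest probe set, the only one not marked for cross-hybridisation, gave 0.13. PSMA2 (0.25) and PSMA6 (0.22) fell short of 1.2-fold. PSMA5 differed by 0.06, within the typical spread between probe sets of 1 gene, whose median SD was 0.08 over 6056 genes. PSMA1 read 11.86 on both arrays, and a dim probe set under the floor went from 6.36 to 6.62. The ring's subunits occur once each in every ring, yet their readings ranged from -0.00 to 0.38. PSMA8, the testis form of PSMA7, read 3.49 and 3.28, below the background probe sets' mean (4.73), and no difference is read from it.

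All 7 constitutive beta subunits were higher on the deposited scale, by 0.20 to 0.38, while 53.4% of all genes lay above 0. By at least 1.2-fold 5 of them were higher, against 23.0% of all genes. Centred on the hybridisation controls, all 7 lay below 0. The active-site subunit PSMB5, which cleaves after hydrophobic residues, went from 11.79 to 12.17. That probe set is marked for cross-hybridisation, and without such probe sets PSMB5 differed by 0.22, short of 1.2-fold. Its 5 probe sets were all higher, on average by 0.28 ± 0.06 (SD between probe sets, not replicates). PSMB7, which cleaves after basic residues, went from 11.68 to 12.06, and its 3 probe sets past the floor averaged 0.38 ± 0.02, while dim ones under the floor gave 0.04 and -0.12. PSMB6, which cleaves after acidic residues, went from 12.02 to 12.22, a difference of 0.20. Among the structural beta subunits PSMB4 (0.34), PSMB2 (0.34) and PSMB3 (0.30) lay past 1.2-fold, and PSMB1 (0.22) did not. PSMB11, the form of the thymic cortex, read 3.92 and 3.78, below background. The median over the 14 core genes past the floor was 0.28. At least 1.2-fold, 8 were higher, against 23.0% of all genes, and none lower, against 19.7%.

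The immunoproteasome went the other way, in every probe set past the floor, and was lower on the hybridisation-control scale as well. PSMB8, which replaces PSMB5, went from 11.05 to 10.65, 1.32-fold lower (-0.40), and its other probe set past the floor gave -0.19. PSMB10, which replaces PSMB7, went from 9.21 to 9.10 (-0.12), and its other probe sets both gave -0.30. PSMB9, which replaces PSMB6, went from 9.95 to 9.89 (-0.06) and gave -0.16 in its other probe set. The brightest probe set thus gave the smaller difference for PSMB9 and PSMB10 and the larger one for PSMB8. Averaged over all probe sets, the immunoproteasome median was -0.24 in place of -0.12. Of these genes PSMB8 alone was at least 1.2-fold lower. At least as low as PSMB8 were 12.4% of all genes past the floor, as low as PSMB10 31.9% and as low as PSMB9 38.6%. The -0.06 of PSMB9 lies within the typical spread between probe sets of 1 gene (median SD 0.08). Leukocytes carry immunoproteasome, and of 9 leukocyte markers measured 2 lay past the floor, CD14 (7.50 and 6.77) and CD68 (9.33 and 9.46). Summed over the 9, of which CD68 was the brightest, the linear signal was 1042 in the control and 1028 in the knockdown. PTPRC, the pan-leukocyte marker, read 3.56 and 3.40, below background. The part of these markers in the result was not tested. In bulk RNA of a cultured line, fewer cells with a transcript and less of it per cell cannot be told apart.

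Setting each immune subunit against the constitutive subunit it replaces gives a difference that no common scaling of the arrays can move. PSMB8 against PSMB5 was -0.78, a ratio 1.72-fold lower on the knockdown array. PSMB10 against PSMB7 was -0.50 and PSMB9 against PSMB6 was -0.26. All 3 ratios were lower on the knockdown array. Over every combination of probe sets past the floor, PSMB8 against PSMB5 ranged from -0.78 to -0.41 (10 combinations), PSMB10 against PSMB7 from -0.70 to -0.48 (9), and PSMB9 against PSMB6 from -0.36 to -0.26 (2). Combinations share probe sets and both arrays, so they are not independent. A ratio within the arrays shows unequal change and does not say which of its genes changed.

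**Figure D3:**
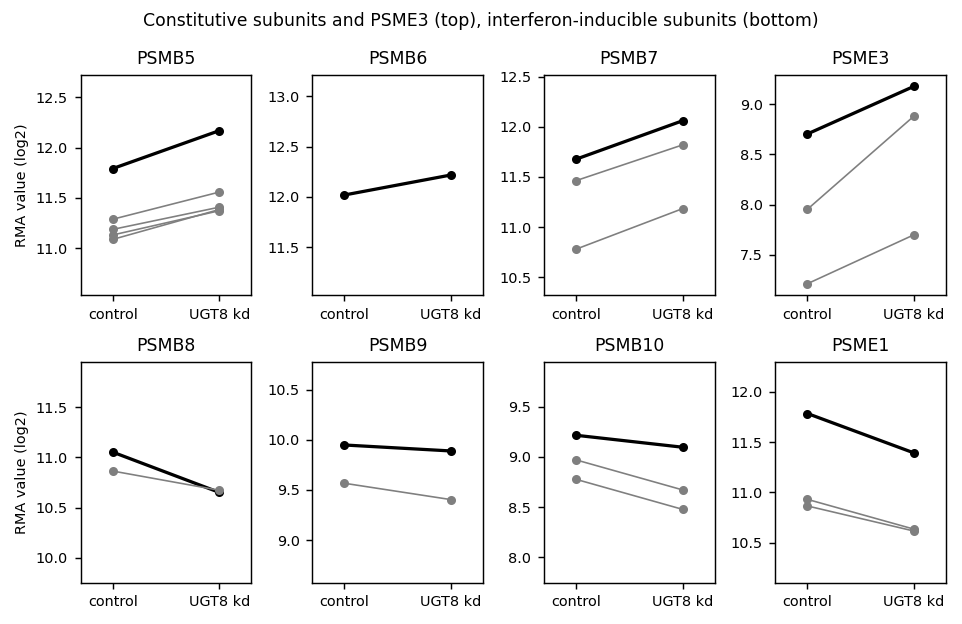
RMA value (log2, y axis, each panel spanning the same range of 2.2) on the control and the knockdown array for PSMB5, PSMB6, PSMB7 and PSME3 (top) and PSMB8, PSMB9, PSMB10 and PSME1 (bottom). Each line is a probe set past the floor, the black one that with the highest mean. On the deposited scale every line of the top row rises to the right and every line of the bottom row falls. PSME2, the interferon-inducible partner of PSME1, is not drawn and was higher by 0.11. Centred on the hybridisation controls, the difference of each line is lowered by 0.51.

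On the deposited scale, 12 of the 14 regulatory cap genes were at least 1.2-fold higher, against 23.0% of all genes. None was lower by that much, against 19.7%, and the median was 0.36. Centred on the hybridisation controls, PSMC3 alone was above 0. In the base, the ATPase PSMC3, read by 1 probe set, went from 10.67 to 11.25 (0.58). PSMC1 (0.36), PSMC2 (0.36) and PSMC4 (0.32), ATPases of the same ring, followed. PSMC6, the fifth ATPase measured, read 11.36 and 11.31 and was the only cap gene below 0 (-0.05). The reading of PSMC2 was not uniform: a dimmer probe set past the floor went from 8.63 to 8.56, one under the floor gave -0.36, and the mean over its 3 probe sets was -0.02. PSMD2, a large scaffold of the base, went from 12.11 to 12.61, and its 3 probe sets averaged 0.58 ± 0.07. PSMD1, the other scaffold, differed by 0.45. PSMD4, a ubiquitin receptor, differed by 0.23.

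All 6 lid genes measured were at least 1.2-fold higher on the deposited scale, by 0.28 to 0.46, against 23.0% of all genes. Centred on the hybridisation controls, all 6 were below 0. PSMD3 (0.28) was the lid gene nearest the threshold. It gave 0.19 without cross-hybridising probe sets and 0.19 averaged over all its probe sets. Centred on the median of all genes it gave 0.25, by loess 0.24 and on the poly-A controls 0.21. PSMD12 went from 10.57 to 11.03, and its 4 probe sets averaged 0.42 ± 0.09. PSMD14, the deubiquitinase that removes ubiquitin chains before degradation, went from 11.12 to 11.52, with 0.50 in its second probe set. The structural subunits PSMD8 (0.37), PSMD6 (0.36) and PSMD11 (0.36) completed the lid genes measured, with a dim probe set of PSMD8 under the floor at 0.04. Averaged over all its probe sets PSMD8 gave 0.260, just short of 1.2-fold (0.263).

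By the brightest probe sets, assembly factors held both the highest members of the whole family and a lower one, with a median of 0.40 over 7 genes on the deposited scale and -0.11 centred on the hybridisation controls. PSMG1 and PSMG4 belong to different chaperone pairs that help the alpha ring form. PSMG1 went from 9.33 to 10.09, 1.69-fold higher (0.76), in its single probe set. PSMG4 went from 9.46 to 10.22, 1.70-fold higher, and its 5 probe sets past the floor averaged 0.71 ± 0.05, with 0.40 in one under the floor. Of all genes past the floor, 2.18% differed upward by at least as much as PSMG1 and 2.06% by at least as much as PSMG4. Their partners differed from them: PSMG3, which pairs with PSMG4, went from 7.98 to 8.51 (0.53), while PSMG2, which pairs with PSMG1, went from 11.48 to 11.55 (0.07). Among the chaperones of the cap's base, PSMD9 (0.40) and PSMD5 (0.27) were higher, and PSMD10, also known as the oncoprotein gankyrin, was 1.21-fold lower, from 10.49 to 10.22, with -0.09 in its second probe set.

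Activators bind the barrel in place of the cap, and they split. PSME1, an interferon-inducible activator subunit, went from 11.79 to 11.39, 1.31-fold lower, and its 3 probe sets averaged -0.31 ± 0.07. Its partner PSME2, also interferon-inducible and read by 1 probe set, went from 10.82 to 10.93 (0.11). PSME3, which forms a separate nuclear activator, went from 8.70 to 9.18 (0.47) in a probe set marked for cross-hybridisation, and its other probe sets gave 0.93 and 0.49. Without marked probe sets PSME3, at 0.93, was the highest member, above PSMG4 (0.76). PSME1 against PSME3 was -0.87 and PSME1 against PSME2 was -0.50, on any common scale. PSME4, another nuclear activator, had 3 probe sets above 0 and 3 below, with a mean of -0.02 ± 0.08. PSMF1, which inhibits the core particle in vitro, differed by 0.11. PSMD10, PSMB8 and PSME1 were the 3 members at least 1.2-fold lower.

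Probe sets of 1 gene mostly pointed the same way. In 27 of the 29 member genes with several readings past the floor, these lay on 1 side of 0, the exceptions being PSMC2 and PSME4. The same share over all genes is not given here, so whether members differ in this cannot be said. The median SD between probe sets of a member was 0.07, close to the 0.08 over all 6056 genes with several readings. Probe sets of a gene can share probes, and 3 members held a pair with the same difference to 4 decimals, so this SD is no replicate error. PSMA6, PSMB6 and PSMD4 were among the genes read by 1 probe set. PSMA6, PSMC1, PSMC6, PSMD4 and PSME2 were read only by probe sets marked for cross-hybridisation. The contrast of PSME1 with PSME2 thus rests on a marked probe set. Without marked probe sets, 38 members remained measured and 21 were at least 1.2-fold higher, against 23.5% of all genes so read. PSMA4, PSMD3 and PSMD5 fell short of 1.2-fold there, in the average over all probe sets, and when centred on the median, by loess or on the poly-A controls. In that average PSMB8 (-0.255, where 1.2-fold is 0.263) and PSMD10 (-0.18) also fell short of 1.2-fold lower.

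Proteasome partners that carry other names were split. Of 15 such genes 6 (40.0%, against 23.0% of all genes) were at least 1.2-fold higher and 1, PAAF1 (-0.27), lower, with a median of 0.11 on the deposited scale; centred on the hybridisation controls ADRM1 alone was above 0. ADRM1, the ubiquitin receptor of the base, went from 11.38 to 11.94 (0.56), and POMP, the maturation factor of the core, from 11.77 to 12.17 (0.39). SEM1, the smallest lid subunit, differed by 0.27. USP14, a deubiquitinase bound to the cap, differed by 0.42, but 2 of its 4 probe sets were below 0. UCHL5, another deubiquitinase of the cap, differed by 0.09 in its brightest probe set, the lowest of 5 that ranged up to 0.62. NFE2L1, the transcription factor that raises proteasome genes when the proteasome is inhibited, went from 10.84 to 10.65 (-0.19). All 6 of its probe sets were below 0, from -0.48 to -0.19. Of the 9 genes past the floor in the list around NFE2L1, none was at least 1.2-fold higher, against 23.0% of all genes. NFE2L2 (-0.32) and MAFF (-0.36) were lower, 22.2% of the list against 19.7% of all genes, which is a share near the background. Of 9 ubiquitin, E1 and shuttle genes, UFD1, a cofactor of the segregase VCP, was higher (9.40 and 10.15). The shuttle gene UBQLN1 read -0.41 in its brightest probe set, but its 3 probe sets ranged from -0.41 to 0.32. With 1 higher and 1 lower of 9, or 11.1% each, neither share exceeded that of all genes.

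Genes of interferon-gamma control and peptide loading were mostly lower, like the immunoproteasome. Of 14 past the floor, 9 were lower by 1.2-fold or more (64.3%, against 19.7% of all genes) and 1 was higher, with a median of -0.35 (-0.38 relative to all genes). IRF1, a transcription factor that drives PSMB9 and TAP1, went from 9.25 to 8.82 (-0.42). The peptide-trimming enzyme ERAP1 went from 8.51 to 7.88, 1.55-fold lower. PSMB8 and PSMB9 lie in the HLA region in the order TAP2, PSMB8, TAP1 and PSMB9, with no other protein-coding gene of the RefSeq table between them. TAP1 and TAP2 together encode the peptide transporter, and they differed in direction. TAP1 was lower (10.87 and 10.50), while TAP2 was higher (9.38 and 9.83), in 3 of its 4 probe sets.

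Related complexes were compared because their subunits resemble those of the lid. The COP9 signalosome, whose subunits are built on the plan of the lid, had a median of 0.24 over 9 genes, 3 of them, or 33.3%, at least 1.2-fold higher (COPS3, COPS6 and COPS8). The translation initiation factor eIF3, which shares that plan, had a median of 0.10 over 12 genes, with 3 at least 1.2-fold higher (EIF3B, EIF3I and EIF3J), a share of 25% near the 23.0% of all genes. No measured gene of either was at least 1.2-fold lower on the deposited scale, against 19.7% of all genes. Above 0 were 88.9% of the signalosome genes and 83.3% of the eIF3 genes, beside 81.4% of the proteasome members and 53.4% of all genes. All genes of both complexes lay below 0 when centred on the hybridisation controls. The cap median of 0.36 lay above both, but with 1 pair of arrays the difference between complexes was not tested.

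Promoter sequence was examined because the members moved in groups. The RefSeq promoter table (GRCh38.p14) held 47 promoters of 39 member genes, and the 250 bases before the start were searched on both strands. The antioxidant response element TGACNNNGC, the site type of NFE2L1, was in 12 of 47 (25.5%), against 10.9% of all 35116 promoters and 11.8% of those of genes past the floor. Of its 12 carriers 9 lay above 0, from PSMG2 (0.07) to PSMG1 (0.76), and 3 below, PSME4 (-0.03), PSMB9 (-0.06) and PSME1 (-0.39). That share above 0 was no higher than the 81.4% of all members, beside 53.4% of all genes past the floor. The ETS site CCGGAAG was in 10 promoters (21.3%, against 8.52% of all and 14.0% of those of genes past the floor), and CCAAT was in 17 (36.2%, against 32.0% and 32.9%). The gamma-activated sequence TTCNNNGAA was in 7 (14.9%, against 6.57% and 5.35%). The core of the interferon-stimulated response element, GAAANNGAAA, was in 5 (10.6%, against 3.02% and 2.36%), those of PSMA4, PSMB4, PSMB10, PSME2 and PSMG4. No match of a motif overlapped a match of another in these windows. A match is a run of letters and not a measured site.

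The promoters of PSMG4, PSMB10 and PSME2 held the same letters of the last motif close to the start. They are shown with a promoter of PSMB8 and that of PSMG1, which by the brightest probe sets were the lowest member and, after PSMG4, the highest. Capitals mark the motif matches. The windows are chr6:3258867-3258946 (plus strand) for PSMG4, chr16:67936851-67936930 (minus) for PSMB10, chr14:24146611-24146690 (minus) for PSME2, chr6:32844048-32844127 (minus) for PSMB8 and chr21:39183452-39183701 (minus) for PSMG1, in GRCh38.p14. Each ends at the base before the start and reads 5′ to 3′ on the gene's strand.
PSMG4: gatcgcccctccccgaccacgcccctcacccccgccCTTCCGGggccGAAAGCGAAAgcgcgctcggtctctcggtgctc
PSMB10: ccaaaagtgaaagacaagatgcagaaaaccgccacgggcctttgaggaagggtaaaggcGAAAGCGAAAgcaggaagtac
PSME2: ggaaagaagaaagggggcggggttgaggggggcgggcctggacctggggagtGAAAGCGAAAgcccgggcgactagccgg
PSMB8: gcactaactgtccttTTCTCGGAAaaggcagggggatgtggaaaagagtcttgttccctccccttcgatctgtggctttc
PSMG1: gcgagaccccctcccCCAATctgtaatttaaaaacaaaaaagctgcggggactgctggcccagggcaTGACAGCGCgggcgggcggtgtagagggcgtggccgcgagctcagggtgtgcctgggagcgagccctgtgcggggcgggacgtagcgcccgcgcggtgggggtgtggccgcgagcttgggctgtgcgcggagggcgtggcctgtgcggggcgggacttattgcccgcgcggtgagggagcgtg
The run GAAAGCGAAA was picked because 3 members share it, so their number is no result about the members. Of all 35116 promoters 28 (0.0797%) held it, those of the 3 members among them. These 3 did not share a direction, with PSMG4 at 0.76, PSME2 at 0.11 and PSMB10 at -0.12. The 18 genes past the floor that hold it, the 3 members among them, had a median of 0.09, with 11 above 0 and 7 below. Over all genes past the floor the median was 0.03, with 53.4% above 0. PSMG4, by the brightest probe sets the highest member, carried this run beside an ETS match, as a pair of interferon-inducible proteasome genes carried the run. A link between the run and the differences was not tested. In the PSMB8 window shown the match is to the gamma-activated sequence, while the table's other PSMB8 promoter, chr6:32844680-32844929 (minus), held no match, and in PSMG1 to CCAAT and the antioxidant response element.

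**Figure D4:**
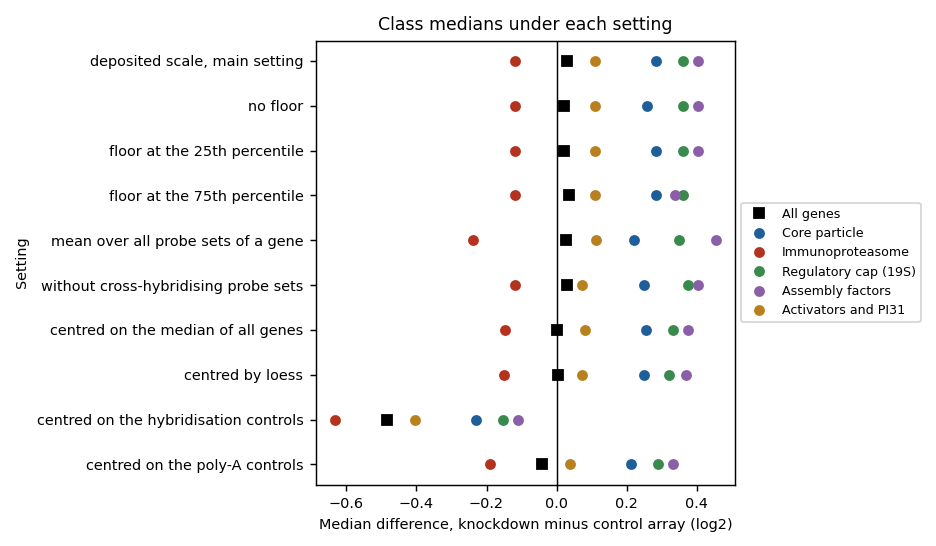
Median difference (log2, x axis) of each class and of all genes under the main setting and 9 alternatives (y axis). The order of the immunoproteasome, activator and core medians is the same in every row; all classes fall below 0 when centred on the hybridisation controls, where the median of all genes is -0.48.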

How the data were processed

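RNA of 1 control and 1 UGT8 knockdown sample was hybridised to 1 expression array each. The authors deposited 1 log2 value per probe set, made with RMA per the submitters' processing notes; RMA corrects background, normalizes between arrays and summarises probes. Which program ran RMA, in which version and on which build: not given in the sources used here. Normalization between arrays removes a shift common to most transcripts.

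Groups came from the genotype labels. Of 49495 probe sets, 202 were controls (AFFX and ERCC names), 45278 had 1 symbol in the platform annotation, 1333 several and 2682 none, and those with 1 symbol were used. Every member is named, with its other probe sets where their sign differed or they lay over 0.3 away. Of the other lists, POMP, ADRM1, SEM1, NFE2L1, USP14, UCHL5, TAP1, TAP2, IRF1 and genes at least 1.5-fold different are named, and 1 further gene is not reported here. PAAF1, NFE2L2, MAFF, UBQLN1 and the signalosome and eIF3 genes were chosen after seeing their values. Members, lists and motifs were chosen with earlier results of these data known. No test was run. Counts were made at 1.2-fold. Counting was tested on simulated data. Python 3.11.15, pandas 2.3.3 and statsmodels 0.14.6 were used. Alternatives changed the floor, the probe sets, the fold and the scale.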

Additional observations from a re-analysis of the deposited data

How the results depend on the processing

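With 1 array per group no replicate could be left out. No paired analysis was possible because each group holds 1 array. Centring on the hybridisation controls turned the median over all members to -0.19, over core subunits to -0.23, over cap subunits to -0.15, over assembly factors to -0.11 and over activators to -0.40, and that of the immunoproteasome to -0.63. It left 0 members at least 1.2-fold higher, against 1.91% of all genes, and 17 lower, against 75.8%. Above 0 were 4 of 43 members, against 7.10% of all genes. On that scale 22 members past 1.2-fold changed sign: PSMA3 (-0.16), PSMA4 (-0.25), PSMA7 (-0.14), PSMB2 (-0.18), PSMB3 (-0.21), PSMB4 (-0.17), PSMB5 (-0.13), PSMB7 (-0.13), PSMC1 (-0.16), PSMC2 (-0.15), PSMC4 (-0.19), PSMD1 (-0.058), PSMD2 (-0.010), PSMD3 (-0.23), PSMD5 (-0.24), PSMD6 (-0.16), PSMD8 (-0.14), PSMD9 (-0.11), PSMD11 (-0.16), PSMD12 (-0.055), PSMD14 (-0.11) and PSME3 (-0.038). This follows from subtracting 0.51 from every difference. Using each gene's average over its probe sets, with the dim ones, gave a median over all members of 0.23, an immunoproteasome median of -0.24, 1 member lower (PSME1) and PSMC2 at -0.022. At 1.5-fold, 2 members were higher and 0 lower. The other medians and counts stayed within 0.08 or within 1.5 times of the main value under each other floor, without cross-hybridising probe sets, and centred on the median, by loess or on the poly-A controls. Dim probe sets near background bound what can be read for PSMA8 and PSMB11.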
